A study of Mus musculus with 4 samples.

Results

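Genes of the Hedgehog pathway were evaluated in basal and luminal epithelial cells of the growing mouse prostate, sorted from the distal tips of the ventral lobe. The 9 genes were listed by name and role, with earlier results of these data known, so their comparison with all genes is a description: the ligand Shh, the receptors and co-receptor Ptch1, Boc and Smo, the transcription factors Gli1, Gli2 and Gli3, their binding partner Sufu, and the ligand-trapping inhibitor Hhip. They are 9 of the 49671 genes in the deposited table, and all 9 passed, in both cell types, the filter on low values that left 18737 genes for testing. RNA-seq was performed on 2 libraries of basal cells (EpCAM high, CD49f high), labelled replicates 1 and 3, and on 2 libraries of luminal cells (EpCAM high, CD49f low), labelled replicates 3 and 2. All cells came from untreated CD-1 mice at P10 to P13 and were gated to exclude CD45+, CD31+ and CD140a+ cells, and the ventral lobes of several males of mixed background were used. The study treats the basal cells of this region as multipotent and the luminal cells as their progeny, by their place at the tip and their surface markers.

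Hedgehog ligands are secreted, lipid-modified proteins. Without ligand, the receptor Patched holds the membrane protein Smoothened inactive and GLI proteins are cut into repressors or held by SUFU. Ligand binding releases Smoothened, which acts at the primary cilium and lets GLI activators reach the nucleus, where GLI1, PTCH1 and HHIP are classical target genes, so that their transcripts are a usual readout of the pathway. In the developing prostate, epithelial buds are known as the source of Shh, and the surrounding mesenchyme as a main site of the response.

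The deposited value is a read count per gene that the authors scaled to a common total and rounded. Low values in a library lay, nearly all, on whole steps of what 1 read was worth, namely 6.26 for basal replicate 1, 6.49 for basal replicate 3, 19.4 for luminal replicate 3 and 31.2 for luminal replicate 2. Reads recovered by this division ranged from 643268 to 3194291 per library, and both luminal libraries were shallower than both basal libraries, so depth and cell type cannot be told apart. The sort was checked with keratins and other lineage markers. All 5 basal markers were higher in basal cells with a limma adjusted p under 0.05 (Krt5, Krt14, Trp63, Itga6 and Krt15), and of 5 luminal markers Krt19 and Cldn3 were higher in luminal cells at that level. The nuclear genes that code for protein held 57.3% to 76.0% of a library's values, less in luminal than in basal cells.

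The clearest difference was in the ligand. Shh (ENSMUSG00000002633, chromosome 5 of GRCm38, 28456815 to 28467256), which encodes Sonic hedgehog, stood at normalized values of 871 (replicate 1) and 1007 (replicate 3) in basal cells, against 39 (replicate 3) and 62 (replicate 2) in luminal cells, and libraries are given in this order throughout. The groups did not overlap, and each luminal library rested on 2 reads, against 139 and 155 reads in the basal libraries. The basal mean of 939 ± 96.2 was 18.6 times the luminal mean of 50.5 ± 16.3 (SD, n = 2 each). As each luminal library held 2 reads, the luminal SD is set by the value of 1 read alone. Over pooled reads, 294 in basal and 4 in luminal cells, the ratio was 19.7 with an exact 95% interval of 7.60 to 72.7, which covers counting error only. On log2 of the value plus 1, the fold change of luminal over basal was -4.22 (standard error 0.52, limma adjusted p = 0.0481). Shh was the single Hedgehog gene of the 9 with a limma adjusted p under 0.05, a level that 0.694% of all genes tested passed, 0.438% toward basal and 0.256% toward luminal cells. On recovered reads Shh had an adjusted p of 0.00122 in edgeR, which called 948 genes, 5.06% of the 18737 tested. In DESeq2 it was 0.000256, with 819 genes called, 5.7% of the 14379 given an adjusted p. Neither tool called another of the 9. Leaving out any library kept the fold change between -4.55 and -3.90. The adjusted p was then 0.345 without basal replicate 1, 0.362 without basal replicate 3, 0.0771 without luminal replicate 2 and 0.0744 without luminal replicate 3. It was also above 0.05 with other scalings (0.0513 and 0.0511) and without the filter (0.228). With 2 libraries a side the smallest two-sided p of an exact permutation test is 0.333. The sources do not say which libraries came from separate mice, so p-values rest on the spread between these libraries, which may be technical. The limma error is also drawn toward a trend over all genes. For Shh the luminal part of the spread is the scaling, so its p does not measure luminal variation.

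Shh lies on the minus strand, and 2 annotated genes on the plus strand share exon bases with it, 9530036O11Rik over 446 bases and Gm26894 over 361 bases. Without a stated use of strand in counting, reads of such partners cannot be told apart, so their values are uncertain. 9530036O11Rik was at 138 and 188 in basal replicates 1 and 3 and at 19 and 31 in luminal replicates 3 and 2. Gm26894 was at 157 and 247 in basal cells and at 0 and 31 in luminal cells. Both were thus higher in each basal library than in each luminal library, as Shh was.

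**Figure D1:**
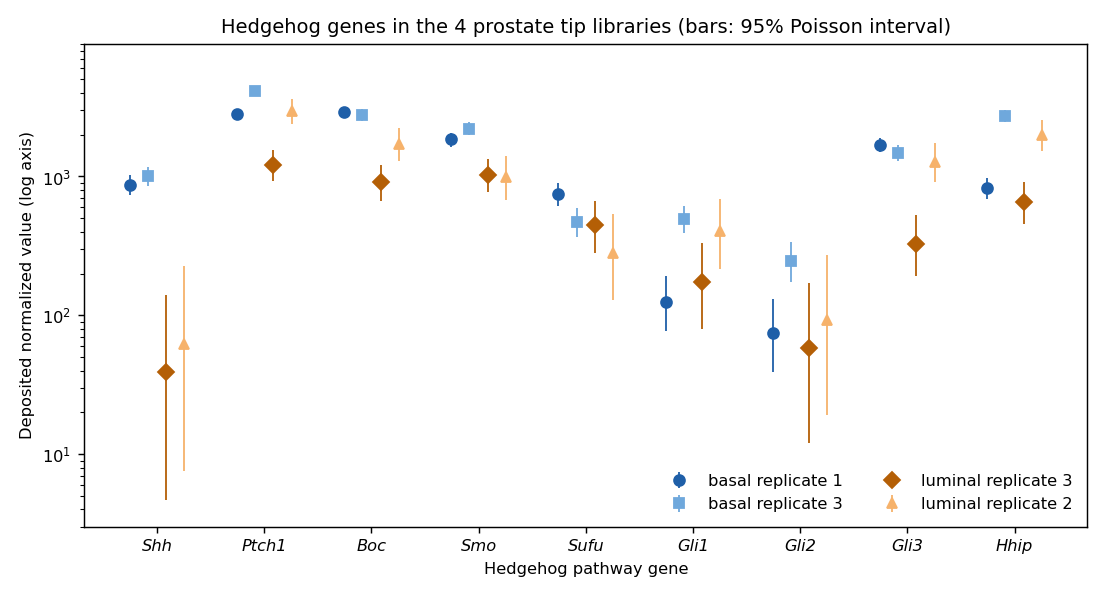
Deposited normalized value (log axis) of each Hedgehog gene in basal replicates 1 and 3 (blue) and luminal replicates 3 and 2 (orange). Points are single libraries and bars are 95% Poisson intervals on recovered reads. The luminal points of Shh, at 39 and 62, lie far below its basal points at 871 and 1007, whereas for Gli1 and Hhip the libraries of a cell type lie far apart.

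The other ligands were low. Ihh, which encodes Indian hedgehog, was at 0 in both basal libraries and at 19 and 93 in luminal replicates 3 and 2, where 19 is 1 read. Both cell types were at or under the floor of 3 reads per library, so no fold is given for Ihh. Dhh, the Desert hedgehog gene, was at 31 and 6 in basal cells and at 58 and 31 in luminal cells, which is at most 5 reads in any library. The luminal libraries thus held 1 to 3 reads of each of the 3 ligands.

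The membrane receptors were lower in luminal than in basal cells without passing the test. Boc (chromosome 16, 44485049 to 44558897), a cell-surface co-receptor that binds the ligand, had values of 2900 and 2780 in the basal libraries and of 910 and 1714 in the luminal libraries. Both basal libraries exceeded both luminal libraries, and the ratio of averages was 2.16 (log2 fold change -1.18, 95% confidence interval -2.07 to -0.30, limma adjusted p = 0.162). Smo (chromosome 6, 29735503 to 29761365), the signal transducer itself, had values of 1847 and 2209 in basal cells and of 1026 and 997 in luminal cells. The luminal libraries lay close together and below both basal libraries, with a ratio of averages of 2.00 and a 95% confidence interval of the log2 fold change from -1.61 to -0.38 (limma adjusted p = 0.0992). Ptch1 (chromosome 13, 63508328 to 63573598), the receptor and a target of the pathway, had values of 2806 and 4118 in basal cells and of 1200 and 2960 in luminal cells. Luminal replicate 2 exceeded basal replicate 1, so the groups overlapped (log2 fold change -0.85, 95% confidence interval -2.05 to 0.35, limma adjusted p = 0.404). Without single libraries the fold change of Ptch1 ran from -1.50 to -0.20.

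The GLI factors differed in how far their libraries spread. Gli3 (chromosome 13, 15463235 to 15730026), which acts mostly as a repressor, had values of 1691 and 1488 in the basal libraries and of 329 and 1278 in the luminal libraries. The groups did not overlap, but the luminal libraries differed 3.88-fold from each other (log2 fold change -1.29, 95% confidence interval -2.91 to 0.34, limma adjusted p = 0.361). Without luminal replicate 3 the fold change was -0.31, and without luminal replicate 2 it was -2.27. Gli2 (chromosome 1, 118834132 to 119053619), the main activator on first exposure to ligand, had values of 75 and 247 in basal cells and of 58 and 93 in luminal cells. Each luminal value was 3 reads, and over pooled reads the basal to luminal ratio of 2.23 had an exact 95% interval of 0.956 to 6.37, so a difference was not detectable at this depth. Without single libraries the fold change of Gli2 ran from -1.74 to -0.03. Gli1 (chromosome 10, 127329882 to 127341974), the target gene most used as a readout, had values of 125 and 494 in basal cells and of 174 and 405 in luminal cells. Both luminal values lay within the range of the basal values, with group means of 309.5 in basal and 289.5 in luminal cells. The log2 fold change was 0.09 with a 95% confidence interval of -1.98 to 2.17 (limma adjusted p = 0.963). edgeR and DESeq2 put the Gli1 fold change at -0.17 and -0.13. Gli1 shares 265 exon bases with an antisense gene, Gm47200, and 62 bases with Arhgap9 on the other strand, and Gli3 shares 188 bases with Gm6556, so reads there are uncertain too. The same holds for Hhip, which shares 175 exon bases with Gm27820 on the other strand.

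Sufu (chromosome 19, 46396896 to 46488804), which holds GLI proteins in the cytoplasm, had values of 745 and 468 in the basal libraries and of 445 and 280 in the luminal libraries. The basal libraries were higher by a narrow margin (log2 fold change -0.74, 95% confidence interval -1.84 to 0.36, limma adjusted p = 0.425). Hhip (chromosome 8, 79965851 to 80058006), which binds and sequesters ligand, had values of 820 and 2741 in basal cells and of 658 and 1994 in luminal cells. The groups overlapped, and the log2 fold change of -0.39 had a 95% confidence interval of -2.28 to 1.51 (limma adjusted p = 0.800). Its direction turned on single libraries, with 0.48 without basal replicate 3 and 0.41 without luminal replicate 3. Gli1 turned likewise, with -0.89 without basal replicate 1 and -0.51 without luminal replicate 2.

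Of the 9 genes, 8 had a fold change below 0, as 10133 of the 18737 genes tested did, and the signs of Gli1 and Hhip turned with single libraries. The median was -0.88 against -0.10 over all genes tested. Toward basal cells, 4 passed the study's threshold of 2 on the ratio of averages (Shh, Boc, Gli2 and Smo), where 16.3% of all genes did, and none passed toward luminal cells (18.3% of all genes). In 5 (Shh, Boc, Smo, Gli3 and Sufu) both basal libraries exceeded both luminal libraries, an order found in 27.3% of all genes, and in none of the 9 was the order the opposite, as in 23.6% of all genes. These shares are over the 18737 genes that passed the filter in either cell type, of which 14953 passed in both, as the 9 did. Gli2 passed with basal replicate 3, and without it the log2 fold change was -0.03. Smo at a ratio of 2.00 lay just inside the threshold and Gli3 at 1.98 just outside. When values were rescaled on nuclear protein-coding genes, the median over all genes was 0.22 instead of -0.10, that of the 9 genes was -0.58 and 1 of them, Shh, passed the threshold. The share of all genes past the threshold at this scale was not counted.

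**Figure D2:**
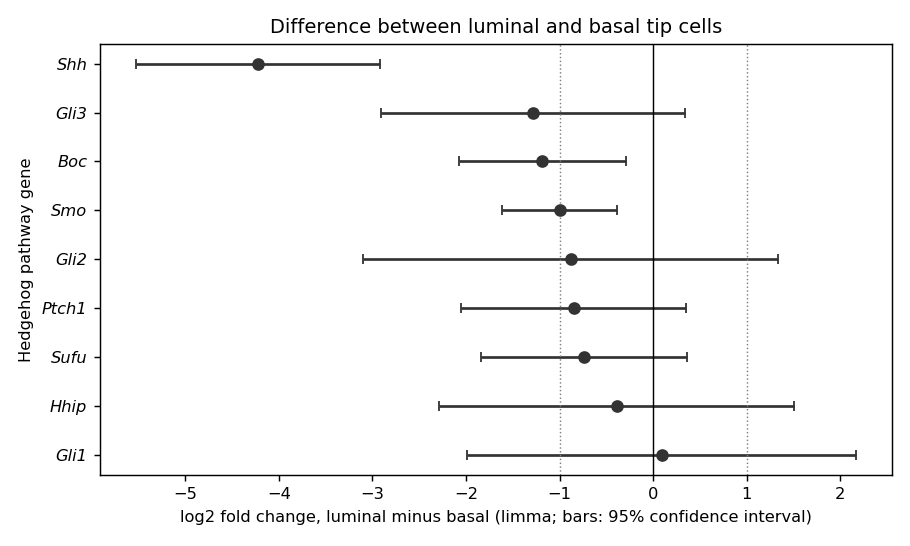
Log2 fold change of luminal over basal cells for each Hedgehog gene from limma, with 95% confidence intervals as bars and dotted lines at a fold of 2. Shh at -4.22 stands alone, and the intervals of Boc and Smo also stay below 0 before adjustment over all genes, whereas that of Gli1 runs from -1.98 to 2.17.

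Levels were also ordered within each cell type after division by the merged exon length of each gene in kilobases. In basal cells Boc was highest at 638 ± 19.1 per kilobase, followed by Smo at 361 ± 45.5 and Shh at 330 ± 33.8 (SD, n = 2 each). The libraries of Smo and Shh overlapped on this scale. Ptch1 at 244 ± 65.4, Hhip at 196 ± 150 and Gli3 at 166 ± 15.0 per kilobase came next and did not separate from their neighbours among these 3. The lowest were Sufu at 78.9 ± 25.5, Gli1 at 62.0 ± 52.2 and Gli2 at 23.4 ± 17.7 per kilobase, with overlapping libraries between neighbours. In luminal cells the order of levels per kilobase was Boc, Smo, Ptch1, Hhip, Gli3, Gli1, Sufu, Shh and Gli2. Shh, in the third place in basal cells, was one of the lowest 2 in luminal cells, at 17.7 ± 5.71 per kilobase, below Sufu at 47.1 ± 15.2 without overlap. Shh and Gli2, with 2 and 3 reads per luminal library, were at or under the floor of 3 reads and cannot be ranked against each other. The luminal SD of Shh comes from the scaling alone. Boc remained first at 295 ± 128 and Smo second at 180 ± 3.65, and the 6 genes from Smo to Sufu overlapped each with the next.

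Libraries of the same cell type differed in the response genes. Gli1 was 3.95-fold higher in basal replicate 3 than in basal replicate 1 and 2.33-fold higher in luminal replicate 2 than in luminal replicate 3. For Hhip these ratios were 3.34 and 3.03 and for Ptch1 1.47 and 2.47. Gli2 was 3.29-fold higher in basal replicate 3 than in basal replicate 1, and its luminal libraries held 3 reads each. In basal cells the spread exceeded counting error, since the 95% Poisson interval of Gli1 was 76.5 to 193 in replicate 1 and 389 to 618 in replicate 3, and that of Hhip was 686 to 974 and 2484 to 3014. In luminal cells the intervals of Hhip were also apart, at 456 to 920 in replicate 3 and 1536 to 2547 in replicate 2, whereas those of Gli1 overlapped. Smo differed 1.20-fold between the basal libraries and 0.972-fold between the luminal libraries.

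Markers of stroma and smooth muscle followed the same order of libraries. All 12 markers of this list (among them Pdgfra, Col1a1, Dcn, Acta2 and Myh11) were above 0 in each of the 4 libraries. Their summed value was 135481 and 264318 in basal replicates 1 and 3 and 83037 and 263510 in luminal replicates 3 and 2, a ratio of 1.95 between the basal and 3.17 between the luminal libraries. Of the 12 markers, 11 were higher in basal replicate 3 than in replicate 1 and also in luminal replicate 2 than in replicate 3, an order found in 23.4% of all genes tested. Of the 9 Hedgehog genes, Ptch1, Gli1 and Hhip had this order. Shh and Gli2 had it in values but not in reads, since their luminal libraries held 2 and 2 and 3 and 3 reads, and the difference there is the value of 1 read. The part of stromal RNA in the levels of these genes, Shh included, was not tested, and in bulk samples fewer cells of a type and less RNA per cell cannot be told apart. Pdgfra, the gene of the excluded surface marker CD140a, was at 3307 and 4144 in the basal and at 2575 and 8383 in the luminal libraries. Endothelial markers summed to 1535 and 1585 in basal and to 581 and 1745 in luminal libraries, and leukocyte markers to 1327 and 278 in basal and to 194 and 311 in luminal libraries in the same order, with Ptprc (CD45) at 0 in both luminal libraries. Schwann cell markers summed to 550 and 987 in basal and to 77 and 124 in luminal libraries, lower in luminal cells as Shh was, while their defining gene Sox10 was at 81, 19, 0 and 31. The part of these cells in the level of Shh was not tested.

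**Figure D3:**
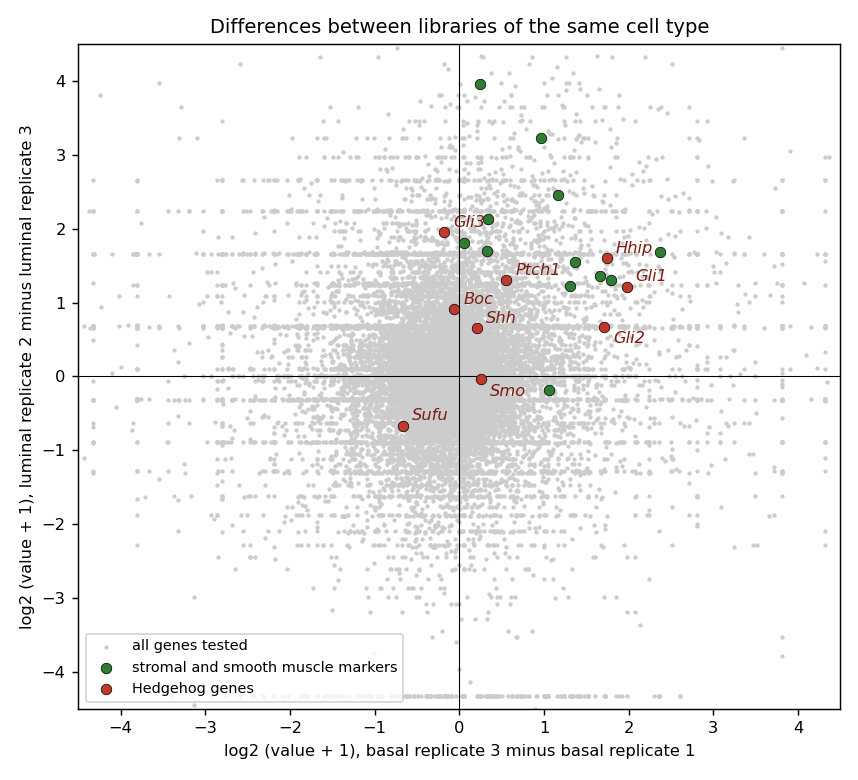
Log2 difference between libraries of the same cell type, basal replicate 3 minus 1 on the x axis and luminal replicate 2 minus 3 on the y axis, for all genes tested (grey), stromal and smooth muscle markers (green) and Hedgehog genes (red). Of 12 stromal markers 11 lie in the upper right, together with Hhip, Gli1 and Ptch1, whereas Sufu lies in the lower left. Gli2 and Shh also lie in the upper right, but with equal reads in both luminal libraries, so their height on the y axis is set by the scaling.

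Upstream sequence was read for the members in the RefSeq promoter table of GRCm38.p6, which held 6 of the 9 (Gli2, Smo, Hhip, Gli3, Ptch1 and Sufu). The 250 bases before the start of Ptch1 and Hhip are shown because these are feedback targets that were both higher in basal replicate 3 and luminal replicate 2 than in the other library of the cell type, and those of Gli2 because they hold the core of the GLI binding motif, in capitals. Ptch1 covers chr13:63565736-63565985, Hhip chr8:80058009-80058258 and Gli2 chr1:119053620-119053869, all on the minus strand and written 5′ to 3′. No annotated exon lies in these 3 windows, and that of Ptch1 falls within an intron of a longer Ptch1 transcript.
Ptch1: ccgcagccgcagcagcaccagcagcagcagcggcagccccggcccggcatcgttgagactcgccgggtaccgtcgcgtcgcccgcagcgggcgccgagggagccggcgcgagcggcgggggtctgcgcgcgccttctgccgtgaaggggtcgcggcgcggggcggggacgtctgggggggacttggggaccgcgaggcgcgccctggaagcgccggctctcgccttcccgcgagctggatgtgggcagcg
Hhip: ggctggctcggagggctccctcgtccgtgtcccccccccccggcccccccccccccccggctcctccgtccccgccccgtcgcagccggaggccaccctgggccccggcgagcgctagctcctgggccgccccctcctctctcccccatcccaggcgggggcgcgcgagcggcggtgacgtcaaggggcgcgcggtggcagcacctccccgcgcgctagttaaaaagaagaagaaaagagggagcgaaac
Gli2: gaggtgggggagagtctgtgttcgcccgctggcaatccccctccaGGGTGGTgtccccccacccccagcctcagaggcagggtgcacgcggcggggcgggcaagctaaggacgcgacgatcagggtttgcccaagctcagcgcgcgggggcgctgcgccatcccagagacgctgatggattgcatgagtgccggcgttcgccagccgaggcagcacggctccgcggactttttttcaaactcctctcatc
The consensus TGGGTGGTC, searched on both strands, was in 0 of the 6 windows and in 0.225% of the 32851 windows of the table. Its 7-base core GGGTGGT, which overlaps it, was in 1 of the 6, that of Gli2, and in 3.92% of all windows. The windows of Ptch1 and Hhip were rich in G and C (78.4% and 76.0%, against a median of 52.4%), with 41 and 28 CG pairs against a median of 6. A match is a description of letters, and these windows do not cover distal elements.

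The rest of the pathway was described with 5 lists of 61 genes, of which 58 passed the filter. None had a limma adjusted p under 0.05, and 10 and 3 had an unadjusted p under 0.05 toward basal and luminal cells, where 10.7% and 7.82% of all genes did. edgeR and DESeq2 on recovered reads each called 3 of the 58 (Cxcl14, Ccnd2 and Numb, all higher in basal cells). edgeR called 5.06% of the 18737 genes tested, and DESeq2 called 5.7% of the 14379 genes to which it gave an adjusted p. On the ratio of averages, 13 of 58 passed the threshold of 2 toward basal and 6 toward luminal cells, where 16.3% and 18.3% of all genes did, and the median log2 fold change was -0.34. Of these 58 genes, 3 passed the filter through basal cells alone (Gpr161, Kif7 and Mycn) and 4 through luminal cells alone (Dhh, Foxf2, Ihh and Lrp2), which fixes their direction. Among the 51 that passed in both, 10 were past the threshold toward basal and 3 toward luminal cells. Of all 18737 genes, 14953 passed in both, and their share past the threshold was not counted. The shares given for all genes include those that passed through 1 cell type alone.

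Among genes of ligand acylation, export and release, 5 passed the filter in both cell types. Of these, 1 was past the fold threshold toward basal and none toward luminal cells, against 16.3% and 18.3% of genes that passed in either. Disp1, which exports the ligand from the cell that makes it, had means of 146 ± 32.5 in basal and 85.0 ± 11.3 in luminal cells (SD, n = 2 each), which did not pass the test (log2 fold change -0.76, limma adjusted p = 0.569). Scube1, a secreted carrier of ligand, had a log2 fold change of 0.54 (limma adjusted p = 0.764). Scube2, a relative, had no settled direction, with a log2 fold change of 0.77 in limma (adjusted p = 0.784), of -0.15 in edgeR and of -0.10 in DESeq2, and -1.14 to 2.67 in limma without single libraries. Scube2 was at 25 and 364 in the basal libraries and at 97 and 280 in the luminal libraries, higher in the libraries with more stromal transcripts.

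The co-receptor Cdon, a relative of Boc, had values of 1584 and 1416 in the basal libraries and of 465 and 810 in the luminal libraries. As for Boc, the groups did not overlap and the test was not passed (log2 fold change -1.29, limma adjusted p = 0.136). Gas1, another co-receptor, had values of 1115 and 2287 in basal and of 387 and 1652 in luminal cells, with overlap (ratio of averages 1.67, limma adjusted p = 0.514).

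The 19 genes of the ciliary relay had a median log2 fold change of -0.50, with 4 past the fold threshold toward basal and 1 toward luminal cells. Among the 17 that passed the filter in both, these numbered 2 and 1, against 16.3% and 18.3% of genes that passed in either. The median includes Gpr161 and Kif7, which passed through basal cells alone. Without them the middle gene of the list was Ift172 at -0.04, where the median over all genes tested was -0.10. Evc2, which binds Smoothened at the base of the cilium, had means of 641.5 ± 227 and 287 ± 141 in basal and luminal cells, and Kif3a, a motor subunit needed to build cilia, 362 ± 107 and 173 ± 107 (SD, n = 2 each). Their fold changes were -1.20 and -1.18 with limma adjusted p of 0.301 and 0.393. Gpr161, a ciliary receptor that restrains the pathway, was at 294 and 208 in basal cells, at 0 in luminal replicate 3 and at 187 in luminal replicate 2, so its fitted fold change of -4.18 (limma adjusted p = 0.420) rests on 1 library at 0. The 18 genes that phosphorylate, ubiquitinate or degrade GLI proteins had a median of -0.35. In this list Numb, an adaptor that directs GLI1 to degradation and also restrains Notch, had values of 3338 and 1929 in basal and of 891 and 686 in luminal cells (log2 fold change -1.70, limma adjusted p = 0.0705, edgeR adjusted p = 0.0186). The kinase gene Dyrk2 had a fold change of -1.43 (limma adjusted p = 0.197), and Ulk3, another kinase of GLI proteins, one of 1.23 (limma adjusted p = 0.317).

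For the 9 tested genes known as Hedgehog targets in other tissues, the median log2 fold change was -1.32. Of 7 that passed the filter in both cell types, 4 passed the fold threshold toward basal cells and none toward luminal cells. Of all genes that passed in either cell type, 16.3% and 18.3% did, which is not a matched share. Ccnd2, which encodes cyclin D2, had values of 8993 and 10166 in the basal libraries and of 1413 and 2929 in the luminal libraries (log2 fold change -2.23, limma adjusted p = 0.0688, edgeR adjusted p = 0.00406). Cxcl14, a chemokine gene, had values of 3482 and 1968 in basal and of 387 and 499 in luminal cells (log2 fold change -2.57, limma adjusted p = 0.0624, edgeR adjusted p = 0.00204). The cyclin D1 gene Ccnd1 had values of 3557 and 1442 in basal and of 1046 and 436 in luminal cells (log2 fold change -1.74, limma adjusted p = 0.216). These genes have many other inputs. The mesenchymal targets Foxf1 and Igf1, a transcription factor and a growth factor, were instead highest in luminal replicate 2, at 467 and 4082, and, as the stromal sum, were higher in basal replicate 3 than 1.

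**Figure D4:**
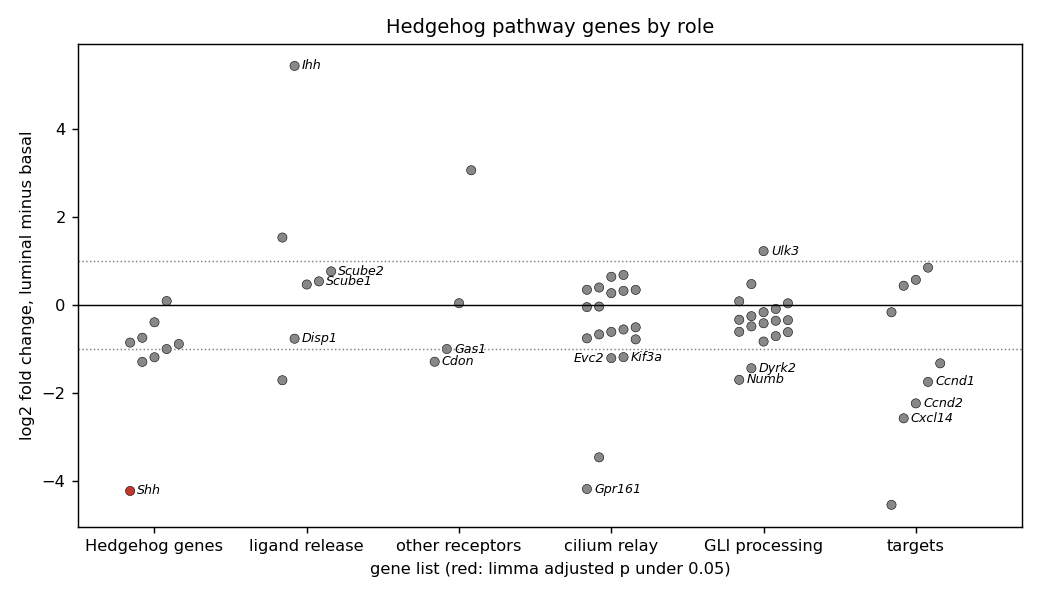
Log2 fold change of luminal over basal cells for the 9 Hedgehog genes and for 5 lists of other pathway genes by role, each point a gene that passed the filter, with 1 receptor gene left out. Shh, at -4.22, is the single point with a limma adjusted p under 0.05 (red), and the fitted value of Ihh rests on 0 reads in basal and on 1 and 3 reads in luminal libraries. Names mark Shh, Ihh and the other genes described by name in each list, and dotted lines mark a fold of 2.

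The genes whose profile over the 4 libraries was most like that of a member were found by the Euclidean distance of log2 values centred on their mean, over 12551 genes averaging at least 100. For Shh these were Sult5a1 at 0.28, Smoc2 at 0.44 and Bmp3 at 0.49, and Sult5a1 had values of 1102 and 1137 in basal and of 39 and 62 in luminal cells. For Gli1 they were Mdk at 0.13, Gpc3 at 0.15 and Prickle2 at 0.15. Gpc3, a cell-surface glypican and one of the 5 listed receptor genes, had values of 1227 and 4878 in basal and of 1549 and 4113 in luminal cells. For Ptch1 they were BC037039 at 0.06, Tshz2 at 0.13 and Abcc5 at 0.15, and BC037039 is annotated as antisense, so its value is uncertain. With 4 libraries such likeness is a description only.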

How the data were processed

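RNA was sequenced from 2 basal and 2 luminal samples. The authors aligned reads to GRCm38 with STAR, counted them per gene with HTSeq and scaled each library to a common total. Picard is also named in the submitters' processing notes. The authors deposited the normalized count as a signal per gene, rounded to a whole number. Removal of duplicates, counting mode and use of strand are not given in the sources used here. Columns of no sample numbered 0. Groups follow the cell type in the labels.

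The value of 1 read was the spacing that most values up to 60 reads lay on, within 0.6, in each library (97.9% to 99.0%). In luminal replicate 2 a minority of genes lay on another spacing, and 533 genes were off the spacing in any library, none of them in the lists used here. Floors are 3 reads, and intervals hold counting error alone. Genes entered the test if all libraries of either cell type reached 10 and averaged at least 20. On log2(value + 1), limma 3.58.1 used a trended prior, and p-values were adjusted by Benjamini-Hochberg over the 18737 genes. Recovered reads went into edgeR 4.0.16 (quasi-likelihood) and DESeq2 1.42.0. Scripts ran in R 4.3.3 and in Python with scipy 1.17.1, pandas 2.3.3, numpy 2.4.6 and matplotlib 3.10.9. Symbols, exons and coordinates came from GENCODE M21 of GRCm38, which held 49326 of the 49671 identifiers. Named from each list were any gene called by limma at 0.05 and the 3 genes with the largest absolute log2 fold change at an average of at least 100, besides all members, markers and the 3 nearest profiles of Shh, Ptch1 and Gli1. Ihh, Dhh, Foxf1, Igf1, overlapping genes and genes that passed the filter through 1 cell type were chosen after their values were seen. Values of 2 listed genes are not reported here, though list counts include them. The members and lists were chosen with earlier results of these data known. On simulated data with 200 genes changed 4-fold among 19211 genes limma recovered 0% of them and edgeR 45.0%, and at 16-fold among 19238 genes 64.5% and 95.5%.

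Alternatives changed the pseudocount (to 10), the filter, the scaling, the tool and the fold threshold (to 4), and left out each library in turn.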

Additional observations from a re-analysis of the deposited data

How the results depend on the processing

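Shh was lower in luminal cells under every alternative run, and leaving out libraries gave fold changes between -4.55 and -3.90. Its adjusted p was above 0.05 with median-ratio rescaling (0.0513), with scaling on nuclear protein-coding genes (0.0511), without a filter (0.228) and without each library in turn (0.0744 to 0.362), so the members called numbered 0 in each of these. Gli1 was at -0.13 with DESeq2, -0.17 with edgeR and between -0.89 and 1.08 without single libraries, and Hhip between -1.26 and 0.48. Past the fold threshold toward basal cells, 1 member was left when nuclear protein-coding genes set the scale, 1 at a fold of 4 and 3 to 6 without single libraries, and toward luminal cells there were 0 to 1 without single libraries. Of the other pathway genes, 3 were called toward basal cells with DESeq2, 3 with edgeR, 3 with the strict filter (every sample and both groups), 2 with a pseudocount of 10 and 0 to 1 without single libraries, and 0 to 1 toward luminal cells. Past the fold threshold they numbered 3 and 2 toward basal and luminal cells at a fold of 4, 3 toward luminal cells with the strict filter, and 8 to 20 and 5 to 11 without single libraries. Over all genes the calls toward basal and luminal cells, 82 and 48, were 416 and 403 with DESeq2, 507 and 441 with edgeR, 0 and 0 without a filter, 319 and 212 with a pseudocount of 10, 409 and 269 with the strict filter, and 14 to 751 and 6 to 830 without single libraries. Where 1 library was left the fit assumed it to vary like the other group. The cause of these shifts was not tested, and shares of all genes past the fold threshold were not counted under these alternatives. With 2 to 3 luminal reads, the levels of Shh and Gli2 in luminal cells are limited by depth. No paired analysis was possible because basal and luminal libraries share a single replicate number.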

Other observations

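Markers of neuroendocrine cells, rare hormone-secreting cells of the prostate epithelium, differed between the luminal libraries. Chga and Chgb, which encode proteins of secretory granules, were at 213 and 97 in luminal replicate 3 and at 0 in luminal replicate 2, and Syp was at 1 read or 0 in these libraries. In basal replicates 1 and 3 Chga was at 19 and 13. None of these 3 genes passed the filter on low values, since the luminal libraries did not share them. Luminal replicate 3 also had the lowest values of Ptch1, Boc, Gli3 and Hhip among the 4 libraries, and the lowest summed stromal markers, 83037 against 135481 to 264318 in the others. Shh and Gli2 were lowest there too in values, but on as many reads as in luminal replicate 2. The share of all genes lowest in this library was not counted. The part of neuroendocrine and stromal cells in these values was not tested.

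Of the genes most like Shh, Smoc2, which encodes a secreted matrix protein, had values of 16490 and 15655 in the basal and of 736 and 1496 in the luminal libraries (log2 fold change -3.94, limma adjusted p = 0.0354). Bmp3, a ligand gene of the BMP family, had values of 2167 and 2936 in basal and of 116 and 249 in luminal cells (log2 fold change -3.88, limma adjusted p = 0.0467). Both were chosen for their likeness to Shh, so these values are a description.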
